A study of Mus musculus with 90 samples.

Results

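The transcripts of 7 genes that are used to tell classes of inhibitory neuron apart were followed in 3 brain regions, the amygdala, frontal cortex and hypothalamus, of territory-holding male mice that met an intruder. Sst, Vip and Cck encode the neuropeptides somatostatin, vasoactive intestinal peptide and cholecystokinin. Pvalb, Calb1 and Calb2 encode the calcium-binding proteins parvalbumin, calbindin and calretinin, and Reln encodes the secreted glycoprotein reelin. They were taken from the count table by the mouse Ensembl identifier that maps to each symbol, which gave 7 rows of 37991, 1 for each gene. The identifiers were ENSMUSG00000004366 (Sst), ENSMUSG00000019772 (Vip), ENSMUSG00000032532 (Cck), ENSMUSG00000005716 (Pvalb), ENSMUSG00000028222 (Calb1), ENSMUSG00000003657 (Calb2) and ENSMUSG00000042453 (Reln).

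Every resident was a C57BL/6J male that had lived with a female, which was removed before the test. The intruder groups were residents exposed for 5 min to an unfamiliar BALB/cJ male held in a mesh cage, and the controls were residents exposed to that cage with a paper cup in it. Tissue was taken 30, 60 or 120 min later, which gives 18 groups of region, time and condition. Each group had 5 libraries, except for 3 in hypothalamus controls at 30 min and 6 in each frontal cortex group at 120 min. The number in each library title was taken as the animal within a time and condition. On that basis the 90 libraries came from 32 animals, 28 of which gave all 3 regions. No age is given in the labels, and they name no drug or transgene. The design text says that RNA samples were pooled to make libraries without saying how, while each library title gives 1 such number.

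In cortex, somatostatin, parvalbumin and vasoactive intestinal peptide mark largely separate classes of GABA-releasing interneurons, which inhibit dendrites, cell bodies and other interneurons respectively. Peptides are cut from precursors, stored in dense-core vesicles and act on G protein-coupled receptors, whereas calcium-binding proteins buffer calcium inside the cell. None of the 7 genes is restricted to interneurons. Cck is also used by cortical pyramidal cells, Vip by the suprachiasmatic nucleus, Sst by periventricular hypothalamic neurons, Calb1 by striatal projection neurons, and Calb2 and Reln by Cajal-Retzius and olfactory bulb neurons. In bulk tissue such as this, fewer cells of a type and less RNA per cell cannot be told apart.

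Each library held 38601039 to 58858458 reads assigned to genes. A library held at least 70 reads of Vip, 177 of Pvalb, 267 of Cck and 359 of Calb2, and at least 2132 reads of each of the other 3 genes. Marker genes fitted the labels of 2 regions. Summed pyramidal markers were 1460 to 2120 CPM (counts-per-million, each read count scaled by its library total after TMM adjustment) in frontal cortex against 284 to 1360 in amygdala and 8.98 to 193 in hypothalamus, and summed hypothalamic markers were 326 to 928 CPM in hypothalamus against at most 11.6 elsewhere. The 5 amygdala markers did not set amygdala apart from frontal cortex, with sums of 253 to 525 and 182 to 297 CPM. Within amygdala, summed striatal markers ran from 194 to 2040 CPM. The file's column headers carry a tag, ISO in all 28 libraries of 30 min and CERV in all 62 of 60 and 120 min. Its meaning is not given in the sources used here, so 30 min and that tag cannot be told apart.

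Sst, Vip and Cck are textbook targets of CREB, the transcription factor that responds to cyclic AMP and calcium signals through the element TGACGTCA, which was defined on the somatostatin gene. The 250 bases upstream of their start sites are shown because the comparison below asks whether a brief stimulus moved these genes. They are RefSeq sequence of build GRCm38.p6, a later build than the NCBIM37 named in the submitters' processing notes. The windows are chr16:23890845-23891094 on the minus strand for Sst, chr10:5638968-5639217 on the plus strand for Vip and chr9:121495695-121495944 on the minus strand for Cck. Capitals mark TGACGTC on either strand, or, where that is not found, the shorter TGACG on either strand; in Sst both strands match and together mark the full 8 letters.
Sst: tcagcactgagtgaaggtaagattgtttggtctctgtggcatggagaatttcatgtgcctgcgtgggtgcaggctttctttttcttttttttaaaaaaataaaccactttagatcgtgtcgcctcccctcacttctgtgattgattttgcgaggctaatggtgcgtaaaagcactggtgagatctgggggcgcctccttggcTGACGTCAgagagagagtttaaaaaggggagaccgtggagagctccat
Vip: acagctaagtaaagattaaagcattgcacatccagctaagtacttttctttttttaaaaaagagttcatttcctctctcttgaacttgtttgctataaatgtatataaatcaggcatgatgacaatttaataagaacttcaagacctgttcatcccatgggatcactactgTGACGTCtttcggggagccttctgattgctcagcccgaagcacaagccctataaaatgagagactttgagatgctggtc
Cck: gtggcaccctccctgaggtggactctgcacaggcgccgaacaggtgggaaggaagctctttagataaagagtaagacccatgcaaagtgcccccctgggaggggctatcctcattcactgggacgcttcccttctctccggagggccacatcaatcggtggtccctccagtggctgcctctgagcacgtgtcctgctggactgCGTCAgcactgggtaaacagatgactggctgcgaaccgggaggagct
The Sst window held the full TGACGTCA, which begins 48 bases before the start and occurs on 1.55% of 32851 promoter windows of that length. Vip held the 7 letters TGACGTC, beginning 79 bases before the start (2.78% of windows hold it on either strand). Cck held a single TGACG, read on the opposite strand as CGTCA (17.8% of windows). Of the 7 genes, 5 were matched in this table; Calb1 and Calb2 have no entry. Neither Pvalb window nor the Reln window held TGACG. The windows differed in composition. The Reln window was 80.0% G or C with 37 CG pairs, against 38.4% and 3 in Vip and medians of 52.4% and 6 over all windows.

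Each gene had its own regional profile, and 3 patterns recurred. Vip, Cck and Pvalb were highest in frontal cortex, and Calb2 was highest in hypothalamus. Sst and Reln were highest in amygdala, Sst as an average over times, while Calb1 varied least between regions. All values are CPM after scaling by trimmed mean of M-values, and each regional fold change averages the 3 times.

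Sst, whose peptide dampens the release of hormones and transmitters, was 157 to 238 CPM in amygdala (median 199), 106 to 215 in frontal cortex (median 158) and 83.5 to 171 in hypothalamus (median 107). In controls it was 1.87 times as high in amygdala as in hypothalamus (log2 0.91, SE 0.057) and 1.26 times as high in amygdala as in frontal cortex (log2 -0.33 for cortex minus amygdala, SE 0.052). The ordering held within animals. Amygdala exceeded hypothalamus in 13 of 13 control animals with both regions, and frontal cortex exceeded amygdala in only 2 of 15.

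Vip was 33.8 to 56.2 CPM in frontal cortex (median 47.1), 10.1 to 36.0 in amygdala (median 19.5) and 1.23 to 23.9 in hypothalamus (median 11.3). Frontal cortex stood 4.58-fold above hypothalamus in controls (log2 2.19, SE 0.16) and 2.30-fold above amygdala (log2 1.20, SE 0.14), and it was higher in every control animal in both comparisons. Amygdala and hypothalamus overlapped, and amygdala was the higher in 12 of 13 control animals (1.99-fold). The lowest Vip value of all belonged to 1 hypothalamus library, intruder replicate 3 at 60 min, whose 1.23 CPM lay far under the 7.67 to 17.8 of the other 4 in its group. Its summed suprachiasmatic markers, at 242 CPM, were within that group's range of 170 to 330.

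Cck had the widest regional range. It was 175 to 397 CPM in frontal cortex (median 273), 45.7 to 193 in amygdala (median 117) and 5.09 to 41.2 in hypothalamus (median 9.37). No hypothalamus library reached the lowest amygdala library. Frontal cortex was 22.7-fold above hypothalamus in controls (log2 4.50, SE 0.26), and amygdala was 9.59-fold above it (log2 3.26, SE 0.24). Within single control animals the ratio of frontal cortex to hypothalamus ran from 6.02 to 58.6 (13 animals).

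Pvalb, the marker of fast-spiking interneurons, was 31.8 to 79.2 CPM in frontal cortex (median 57.1), 3.82 to 26.2 in amygdala (median 9.64) and 4.18 to 54.8 in hypothalamus (median 8.92). In controls frontal cortex was 5.88-fold above amygdala (log2 2.56, SE 0.21) and 7.09-fold above hypothalamus (log2 2.82, SE 0.23). Amygdala and hypothalamus were next to each other in the order and did not differ beyond their spread (log2 0.27, SE 0.22, approximate 95% interval -0.16 to 0.70).

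Calb2 ran the other way. It was 174 to 311 CPM in hypothalamus (median 222), 45.7 to 98.6 in amygdala (median 69.7) and 7.57 to 70.1 in frontal cortex (median 12.3). Every hypothalamus library lay above every library of the other 2 regions. In controls hypothalamus was 13.2-fold above frontal cortex (log2 -3.72 for cortex minus hypothalamus, SE 0.20) and 3.27-fold above amygdala (log2 -1.71 for amygdala minus hypothalamus, SE 0.19). Calb1 was flatter, at 156 to 277 CPM in hypothalamus, 109 to 287 in amygdala and 134 to 192 in frontal cortex. Its hypothalamic level was 1.29 times that of frontal cortex (log2 -0.37, SE 0.091) and 1.20 times that of amygdala (log2 -0.26, SE 0.093), and its difference of -0.11 (SE 0.087, interval -0.28 to 0.06) between frontal cortex and amygdala did not pass the test.

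Reln, which guides neuronal migration in development and acts at synapses in the adult through the receptors Vldlr and Lrp8 and the adaptor Dab1, was 94.0 to 172 CPM in amygdala. It was 47.2 to 97.7 CPM in frontal cortex and 41.7 to 98.1 in hypothalamus. Amygdala was 2.11-fold above frontal cortex (log2 -1.08 for cortex minus amygdala, SE 0.087) and exceeded it in 15 of 15 control animals. Frontal cortex and hypothalamus did not differ beyond their spread (log2 -0.16, SE 0.091, interval -0.33 to 0.02), although frontal cortex was the higher in only 2 of 13 control animals (median ratio 0.858). With the animal as a block the difference was -0.16 (adjusted p = 0.154). It passed the test with upper-quartile scaling (-0.23, adjusted p = 0.0185), without hypothalamus 30 min control replicate 2 (-0.25, adjusted p = 0.00512) and without hypothalamus 120 min control replicate 3 (-0.19, adjusted p = 0.0434).

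**Figure D1:**
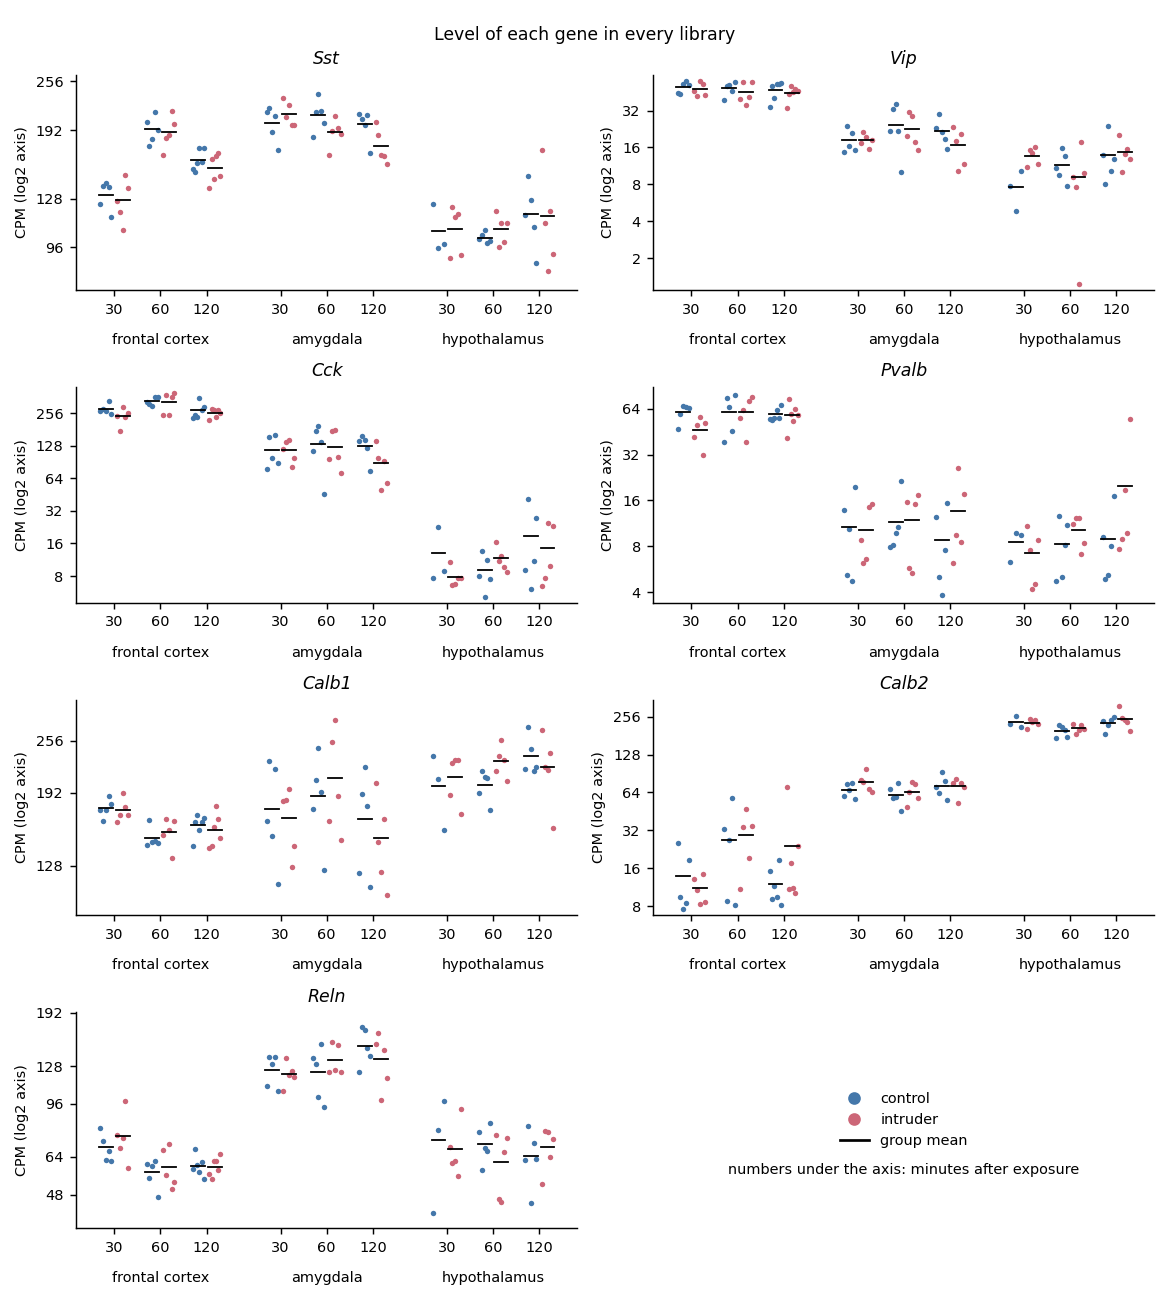
Level of each of the 7 genes in every library, in CPM on a log2 axis; points are libraries by region, minutes after exposure and condition, and bars are group means. Cck libraries of hypothalamus, at 5.09 to 41.2 CPM, all lie below those of amygdala, and Calb2 shows the reverse order of regions.

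In each of the 3 regional comparisons of controls, 6 of the 7 genes passed the test (edgeR's quasi-likelihood test, Benjamini-Hochberg adjusted p below 0.05 over all genes tested). The largest adjusted p among those calls was 0.0121, for Calb1 between amygdala and hypothalamus. Most genes differ between these tissues. The share of all tested genes called was 82.2% for frontal cortex against hypothalamus, 67.8% for frontal cortex against amygdala and 72.3% for amygdala against hypothalamus, so 6 of 7 is near the background and the sizes of the differences, not the number of calls, describe the genes. In intruder-exposed residents the direction was the same for each call, with backgrounds of 83.2%, 67.8% and 73.4%.

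**Figure D2:**
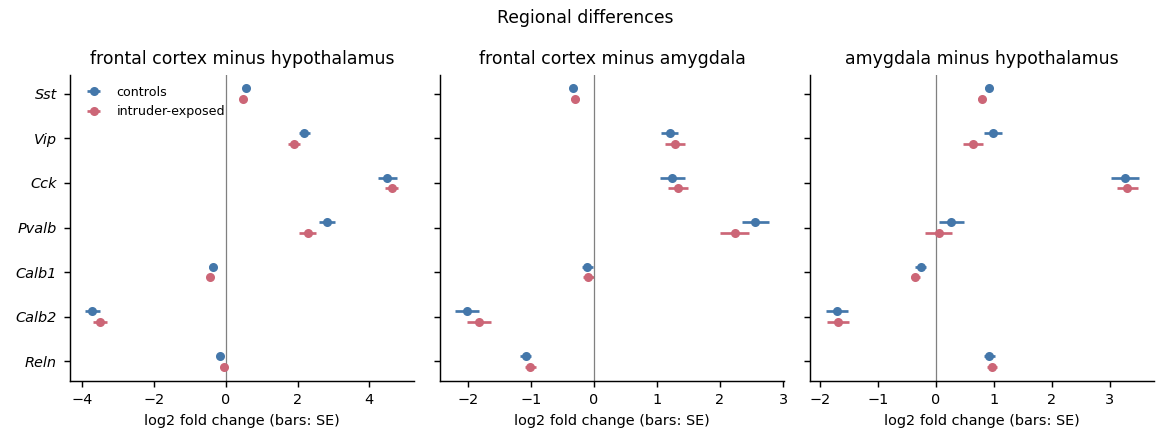
Regional log2 fold changes of the 7 genes in controls and in intruder-exposed residents; points are estimates and bars their standard errors. Cck at 4.50 and Calb2 at -3.72 are the extremes of the comparison between frontal cortex and hypothalamus in controls.

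Levels of different genes are compared here only per kilobase of exon (Gencode M21 exon unions, 0.72 kb for Sst to 23.74 kb for Reln). On that scale Sst had the highest median in all 3 regions, with 149 CPM per kb in hypothalamus, 220 in frontal cortex and 276 in amygdala. In frontal cortex Cck followed closely at 209, and the library ranges of Sst (148 to 298) and Cck (134 to 305) overlapped almost fully. In hypothalamus Calb2, at 127, was next to Sst with overlapping ranges. By these exon lengths Reln had the lowest median in each region, at 2.60 CPM per kb in frontal cortex, 2.85 in hypothalamus and 5.49 in amygdala. Other lengths were not tried. Its range overlapped that of Vip in amygdala (median 5.75) and in hypothalamus (median 3.33).

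The spread between animals also depended on gene and region. The median coefficient of variation over the 6 groups of a region was 6.12% for Calb1 and 8.38% for Sst in frontal cortex. It reached 52.2% for Pvalb in amygdala, 49.1% for Cck in hypothalamus and 52.4% for Calb2 in frontal cortex. Thus Calb2 was least steady in the region where it was lowest, and Calb1 (25.8%) was less steady in amygdala than in either other region.

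Receptors for the 3 peptides followed different regional orders. Of the list of 13 receptors and reelin pathway genes, 12 differed between frontal cortex and hypothalamus in controls, 6 higher and 6 lower in frontal cortex, beside 82.2% of all genes. The list's median log2 fold change was -0.01, as was that of all genes. Vipr1, a receptor of vasoactive intestinal peptide, was 32.6 to 53.7 CPM in frontal cortex, 11.8 to 23.7 in amygdala and 0.762 to 5.69 in hypothalamus, the order of Vip itself. Vipr2, the receptor used in the suprachiasmatic nucleus, had medians of 0.772, 1.41 and 7.05 CPM in frontal cortex, amygdala and hypothalamus. The cholecystokinin receptors split in the same manner. Cckbr had medians of 75.7, 35.2 and 11.3 CPM in frontal cortex, amygdala and hypothalamus, whereas Cckar had medians of 0.021, 1.93 and 10.1.

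Among the somatostatin receptors, Sstr3 and Sstr4 were highest in frontal cortex (medians 30.9 and 16.4 CPM) and lowest in hypothalamus (10.4 and 4.34), which is not the order of Sst. Sstr1 had medians of 16.1 CPM in amygdala, 15.2 in hypothalamus and 11.3 in frontal cortex, and Sstr2 had 23.6, 11.4 and 23.9. Sstr2 thus shared the low hypothalamic level of Sst, and its difference between frontal cortex and amygdala (log2 -0.09, SE 0.107) did not pass the test. Sstr5 was 2.74 to 4.81 CPM in hypothalamus and at a median of 0.0875 in frontal cortex, where some libraries had no read. Lrp8, a reelin receptor, passed none of the 3 regional tests (log2 between -0.05 and 0.04), whereas the adaptor Dab1 was about the same in frontal cortex and amygdala (medians 106 and 108 CPM) and lower in hypothalamus (54.6).

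Counts of the other lists stand beside the same background, 82.2% of all genes. Of 34 further interneuron identity genes, 30 differed between frontal cortex and hypothalamus (13 higher and 17 lower in frontal cortex; median -0.14 against -0.01 for all genes). Chodl, a marker of long-range somatostatin cells, was lower in frontal cortex, with a log2 fold change of -4.25 (SE 0.112), and Lamp5, a marker of neurogliaform cells, was higher at 4.0 (SE 0.127). Other genes of somatostatin cells in the list went both ways. Nos1, which encodes the neuronal nitric oxide synthase of the Chodl cells, was at -1.88 (SE 0.101), while Cort was at 5.35 (SE 0.248) and Npy, which encodes neuropeptide Y, at 2.10 (SE 0.213). Nos1, Cort and Npy were chosen here after their values were seen. Against amygdala, 9 of these genes were higher in frontal cortex and 20 lower (median -0.46 against -0.01; 67.8% of all genes called), with Satb1 at 1.5 and Nr2f2 at -3.41. Of 16 other calcium-binding proteins of the EF-hand type, 11 were higher and 4 lower in frontal cortex than in hypothalamus (median 0.84), with the smallest adjusted p in each direction for Cabp1 at 3.32 and Hpcal1 at -1.87. Of 9 peptide processing genes, 3 were higher and 5 lower (median -0.43), with the prohormone convertase Pcsk2 at 1.18 and the granin Scg2 at -2.12.

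Exposure to the intruder did not move any of the 7 genes past the threshold in any region at any time. Of the 63 tests of a gene in a region at a time, 0 passed with edgeR's quasi-likelihood test and 0 with DESeq2, and 4 had an unadjusted p below 0.05 with each tool. The background was as low. In 7 of the 9 comparisons 0% of all tested genes were called. The share was 0.538% in amygdala and 0.192% in hypothalamus at 120 min (93 and 34 genes, or 6 to 218 and 19 to 53 on leaving out single libraries). In both of these, 0 genes were called when the 2 groups were fitted alone. The leading library index as a term also gave 0 in amygdala. Averages over times called none of the 7 (background 0% in each region). Tests of whether the effect differed between times (background 0% in amygdala and frontal cortex and 0.0113% in hypothalamus) or between regions (0% at each time) called none either. The intervals were narrow for the steadiest genes. Calb1 in frontal cortex had an average intruder effect whose approximate 95% interval was -0.07 to 0.07 on the log2 scale, and for Sst there it was -0.13 to 0.04. For Pvalb in hypothalamus the interval was wide, -0.12 to 0.94.

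**Figure D3:**
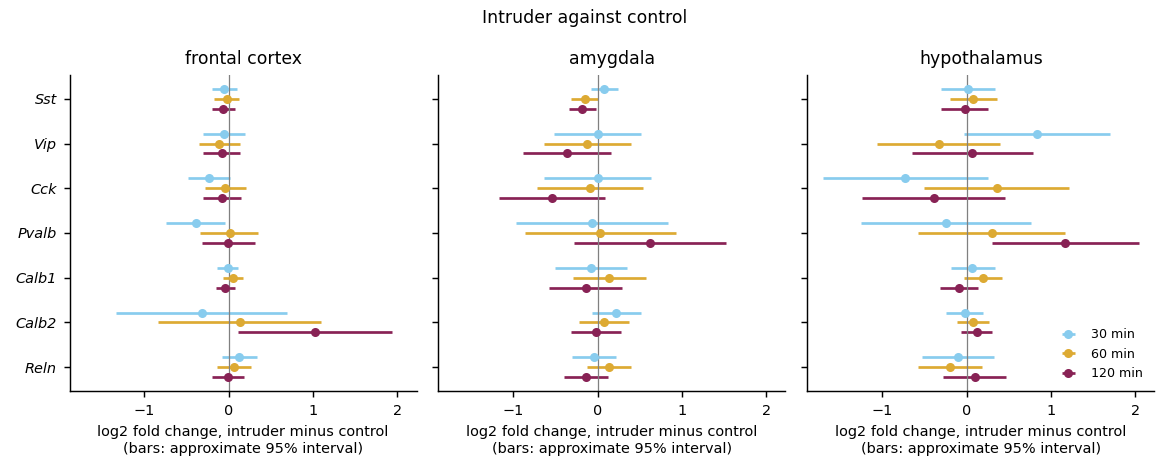
Log2 fold change of intruder minus control for each gene, region and time; points are estimates and bars approximate 95% intervals. The intervals are narrow for Sst and Calb1 in frontal cortex and wide for Cck, Vip and Pvalb in hypothalamus and for Calb2 in frontal cortex.

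The 4 tests with an unadjusted p below 0.05 were Sst in amygdala at 120 min, Pvalb and Calb2 in frontal cortex, and Pvalb in hypothalamus. Sst in amygdala at 120 min was 211, 205, 198, 210 and 168 CPM in controls and 201, 186, 166, 165 and 157 CPM in intruder libraries. The groups overlapped, with 4 of 5 controls above all but the highest intruder library. The log2 fold change was -0.18 (SE 0.081, adjusted p = 0.296). All these controls and intruder replicate 6 share a leading index and the remaining intruder libraries carry another, so condition and index are nearly confounded there. Pvalb in frontal cortex at 30 min was 47.4, 58.7, 67.0, 65.9 and 64.7 CPM in controls and 41.9, 50.3, 56.3, 31.8 and 51.8 CPM in intruder libraries (log2 -0.39, SE 0.18, adjusted p = 0.771).

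The other 2 of these tests rested on a single library each. Calb2 in frontal cortex at 120 min was 8.12 to 18.5 CPM in 6 controls (median 10.5) and 10.1 to 70.1 CPM in 6 intruder libraries (median 14.4), with a log2 fold change of 1.02 (SE 0.47, adjusted p = 0.895). Without intruder replicate 1, the library at 70.1, it was 0.31. All 6 frontal cortex controls at 120 min carry 1 leading index and all 6 intruder libraries another, so every comparison of these groups, Calb2 included, cannot be told apart from the index. Pvalb in hypothalamus at 120 min was 9.25, 4.88, 5.21, 8.0 and 17.0 CPM in controls and 7.62, 8.99, 18.6, 9.72 and 54.8 CPM in intruder libraries, with a log2 fold change of 1.17 (SE 0.44, adjusted p = 0.346). Without intruder replicate 6, the library at 54.8, it was 0.34.

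In 1 of the 63 comparisons the 2 groups did not overlap. Vip in hypothalamus at 30 min was 7.77, 4.83 and 10.3 CPM in the 3 controls and 11, 15.3, 14.3, 16 and 11.7 CPM in the 5 intruder libraries, so that every intruder library was above every control (log2 0.84, SE 0.44, unadjusted p = 0.0687, adjusted p = 1.0). Of all genes tested there, 3.22% had groups that did not overlap. The test of a difference between regions at 30 min gave Vip an unadjusted p of 0.00202 (adjusted p = 0.761). Summed suprachiasmatic markers were 180 to 277 CPM in those controls and 201 to 370 CPM in the intruder libraries; their part in the Vip values was not tested. The 4 gene lists behaved like the 7 genes, with 0 members called in each of the 9 comparisons and list medians between -0.12 and 0.09.

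Sst in frontal cortex differed between times after exposure, in controls and intruder-exposed residents alike. Libraries of 30 min also carry another header tag than those of 60 and 120 min, so time and tag cannot be told apart there. In controls Sst was 124, 138, 140, 137 and 115 CPM at 30 min, 201, 175, 182, 213 and 192 CPM at 60 min, and 150 to 173 CPM in 6 libraries at 120 min (median 158). The 3 times did not overlap. The log2 change was 0.55 (SE 0.076, adjusted p = 1.4e-05) from 30 to 60 min and -0.26 (SE 0.072, adjusted p = 0.0185) from 60 to 120 min. The second change gave -0.23 (adjusted p = 0.0756) without 60 min control replicate 5. In intruder-exposed residents Sst was 126, 118, 106, 147 and 136 CPM at 30 min, 166, 183, 186, 215 and 199 CPM at 60 min, and 136 to 168 CPM at 120 min (median 154). There 30 and 60 min did not overlap, while 120 min overlapped both. The changes were 0.57 (SE 0.076, adjusted p = 1.27e-06) and -0.30 (SE 0.072, adjusted p = 0.00562). Other measures moved with time in the same libraries. The 6 oligodendrocyte markers summed to 3000 to 3820 CPM at 30 min, 4380 to 6780 at 60 min and 3650 to 5750 at 120 min in controls, and to 2360 to 3940, 4200 to 6220 and 3740 to 6080 CPM in intruder-exposed residents. Reads outside annotated genes, as a share of all rows of the table, were 10.99 to 12.7% at 30 min, 8.99 to 9.71% at 60 min and 9.46 to 11.3% at 120 min in controls, and 11.4 to 13.19%, 8.63 to 10.29% and 9.71 to 10.7% in intruder-exposed residents. For both measures 30 and 60 min did not overlap in either condition. Summed pyramidal markers also separated these times in controls (1720 to 1870 against 1900 to 2080 CPM), and summed astrocyte markers did in intruder-exposed residents (1050 to 1170 against 877 to 989 CPM). The part of these measures in the changes of Sst and of the genes that follow was not tested.

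Beside Sst, 3 further genes changed between times in frontal cortex of intruder-exposed residents by the test over all times, namely Cck (adjusted p = 0.0139), Calb1 (adjusted p = 0.0215) and Reln (adjusted p = 0.00788). In controls Calb1 did so (adjusted p = 0.00847). Between 30 and 60 min Cck rose by 0.43 (SE 0.13) in intruder-exposed residents, from 240, 175, 292, 234 and 259 CPM to 244, 376, 244, 360 and 397 CPM. These groups overlapped, since 2 of the 5 libraries at 60 min stayed within the earlier range. From 60 to 120 min it fell by 0.33 (SE 0.12, adjusted p = 0.0477), a call lost on leaving out any 1 of 21 of the 32 libraries (estimates over all 32 from -0.41 to -0.25, adjusted p up to 0.171). Calb1 fell from 30 to 60 min by 0.25 (SE 0.062) in controls and by 0.18 (SE 0.062) in intruder-exposed residents. In controls its level went from 164 to 189 CPM at 30 min to 144 to 165 CPM at 60 min, with 1 library, at 165, inside the earlier range. The change in intruder-exposed residents was -0.15 without 30 min intruder replicate 3 (adjusted p = 0.0566) and -0.13 without 60 min intruder replicate 4 (adjusted p = 0.0818).

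Reln fell from 30 to 60 min by 0.34 (SE 0.10) in intruder-exposed residents, from 75.6, 68.7, 73.8, 97.7 and 58.7 CPM to 67.2, 55.8, 70.7, 50.2 and 52.9 CPM, and by 0.28 (SE 0.10, adjusted p = 0.0339) in controls. Without 30 min intruder replicate 4, the library at 97.7, the first of these was -0.23 (adjusted p = 0.0573). The control change was lost without any 1 of 30 min control replicates 1 and 2 and 60 min control replicates 2 and 6 (-0.26 to -0.22), and gave an adjusted p of 0.0626 with the replicate number as a block. Calb2 rose by 1.40 (SE 0.51, adjusted p = 0.0262) in intruder-exposed residents between 30 and 60 min, when its 5 libraries went from 13.1, 10.8, 8.28, 14.5 and 8.61 CPM to 10.9, 34.2, 47.5, 19.3 and 34.6 CPM. That call was lost on leaving out 30 min intruder replicate 3 or 5 or 60 min intruder replicate 3 or 5, with estimates of 1.15 to 1.33. Summed olfactory bulb markers moved beside it, at 6.39 to 22.9 CPM in the 5 libraries of 30 min and 20.8 to 79.7 CPM in those of 60 min; their part in the result was not tested.

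These changes stand in a background in which a large share of frontal cortex genes differed between times. The share called was 33.4% in controls and 46.1% in intruder-exposed residents by the test over all times. By pair of times it was 35.4% in controls and 45.5% in intruder-exposed residents for 60 against 30 min, 15.9% and 22.9% for 120 against 60 min, and 4.42% and 17.7% for 120 against 30 min. Of the 7 genes, 2 were called in controls and 4 in intruder-exposed residents. All comparisons with 30 min also compare the header tags. Between 60 and 120 min, where the tag is the same, 1 gene was called in controls (Sst) and 2 in intruder-exposed residents (Sst and Cck). A term for the leading library index could be added to the latter comparison only, and gave -0.42 for Sst (adjusted p = 0.0592) and -0.53 for Cck (adjusted p = 0.104). In frontal cortex most time comparisons and the index cannot be told apart either.

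Outside frontal cortex, time called none of the 7 genes by the test over all times (background in controls 0.232% in amygdala and 0.181% in hypothalamus, in intruder-exposed residents 12.9% and 1.49%). Sst in amygdala of intruder-exposed residents came nearest (adjusted p = 0.0565). It was 232, 207, 223, 198 and 198 CPM at 30 min, 166, 191, 208, 194 and 188 CPM at 60 min, and 201, 186, 166, 165 and 157 CPM at 120 min. The pair of 120 and 30 min alone gave -0.27 (SE 0.081, adjusted p = 0.0226), in a comparison that called 15% of all genes; with the index as a term it was -0.34 (adjusted p = 0.58). That call was also lost without 30 min intruder replicate 1 (-0.25) or 3 (-0.27) or 120 min intruder replicate 6 (-0.25). Summed endothelial markers were 111 to 147 CPM at 30 min and 62.1 to 94.1 CPM at 120 min in these groups, and reads outside annotated genes 10.77 to 11.95% and 12.3 to 13.5%, without overlap; their part was not tested.

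Genes of the 4 lists also changed between times in frontal cortex, beside 33.4% of all genes in controls and 46.1% in intruder-exposed residents. By the test over all times, 12 of 34 interneuron identity genes, 4 of 16 EF-hand genes, 3 of 9 peptide processing genes and 5 of 11 tested receptor and reelin pathway genes were called in controls. In intruder-exposed residents the counts were 15, 8, 4 and 7. From 30 to 60 min in controls Cort, which encodes the somatostatin relative cortistatin, rose by 0.51 (SE 0.134). Sstr2, a somatostatin receptor, rose by 0.33 (SE 0.093), and the reelin receptor Vldlr fell by 0.39 (SE 0.083). Maf, a transcription factor of somatostatin and parvalbumin interneurons, fell by 0.39 (SE 0.077). Kcnc1, a potassium channel of fast-spiking cells, fell by 0.31 (SE 0.065).

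Many pairs of the 7 genes varied together from library to library in amygdala, and fewer passed the test in the other 2 regions. The measure was the deviation of log2(CPM + 1) from the mean of its group of region, time and condition, so neither time nor exposure enters it. Over 21 pairs of genes, 19 in amygdala (30 libraries), 6 in frontal cortex (32) and 6 in hypothalamus (28) had a permutation p below 0.05 after adjustment over the 63 relations, by Pearson's r and by Spearman's rho. Permutations were made within groups, and the smallest p that the 100000 permutations can give is 1e-05. The share among other pairs of genes was not computed, so these counts are not shown to be particular to the 7 genes.

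In amygdala the other 6 genes were positively related to one another and Pvalb negatively to each of them. Vip and Cck had r = 0.95 (rho 0.95, adjusted permutation p = 0.000105, n = 30 libraries). Cck and Calb1 had r = 0.86 (rho 0.88), and Pvalb and Calb1 had r = -0.91 (rho -0.92). Without the 2 libraries farthest from the median of the first gene these were 0.93, 0.84 and -0.92. Weaker pairs lost their call that way, namely Sst with Vip (0.49, adjusted p = 0.0692), with Pvalb (-0.43, adjusted p = 0.0805) and with Calb2 (0.41, adjusted p = 0.0972), and Calb1 with Reln (0.42, adjusted p = 0.0805), which left 15 of the 19 pairs by r. Within group and index Vip and Reln did (0.52, adjusted p = 0.0745). Sst and Reln, at r = 0.18, and Vip and Calb2, at r = 0.45, were the pairs that did not pass by both measures. Fewer pairs passed in the other regions, and some had another sign there. In frontal cortex Vip and Pvalb had r = 0.56 (rho 0.49), opposite in sign to their r of -0.79 in amygdala, and Cck and Pvalb had r = 0.44 against -0.85. Pvalb and Reln had r = -0.72 in frontal cortex and -0.68 in amygdala. In hypothalamus Sst and Calb1 had r = 0.65 (rho 0.68), Sst and Pvalb r = -0.68 (rho -0.67) and Calb1 and Reln r = -0.64 (rho -0.65). With deviations taken within group and library index, Sst and Calb1 gave an adjusted p of 0.0546, and Sst and Pvalb one of 0.0520. The difference of a correlation between regions was not tested.

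**Figure D4:**
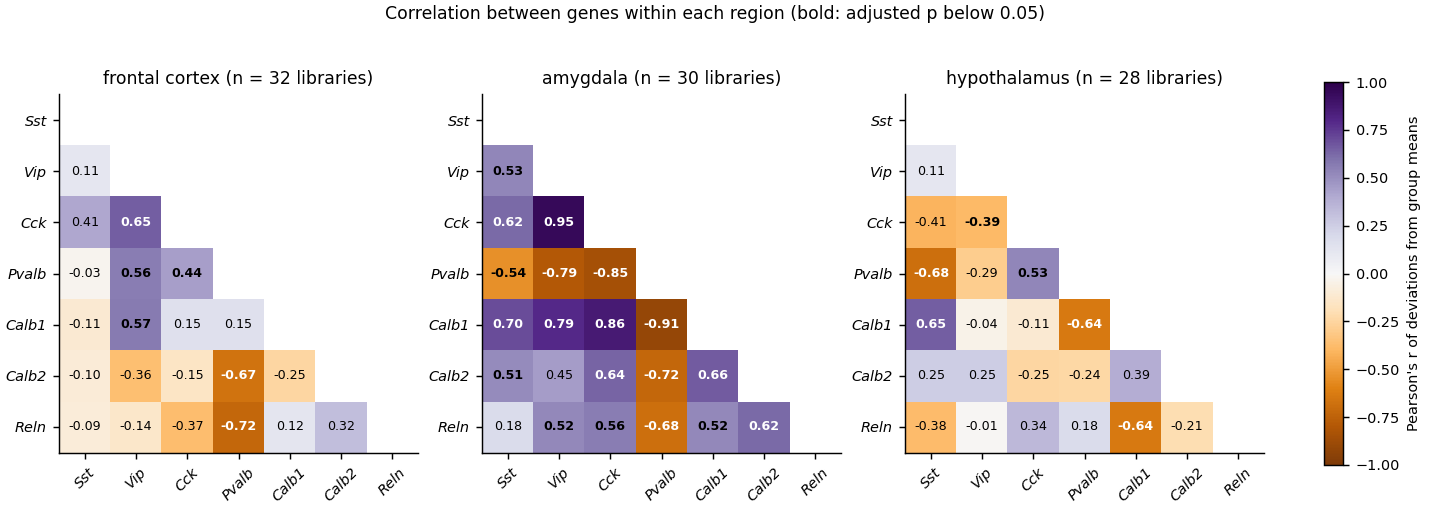
Pearson's r between the deviations of each pair of genes from their group means, by region; bold values have an adjusted permutation p below 0.05. In amygdala the Pvalb row and column are negative throughout, from -0.54 to -0.91, and the other pairs are positive.

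Marker genes of neighbouring tissue moved with these deviations. Scores of 13 marker lists gave 91 relations in each region. Of these, 13 in hypothalamus, 21 in frontal cortex and 36 in amygdala passed after adjustment over all 273 by both measures. The share for other genes was not computed here either. In amygdala, Pvalb went with the striatal score (r = 0.92, rho 0.91) and the oligodendrocyte score (r = 0.90, rho 0.92), while Vip and Cck went with the cortical pyramidal score (r = 0.96 and 0.94) and against the striatal score (r = -0.87 and -0.94). The amygdala library with the most summed striatal markers, 60 min control replicate 6 at 2040 CPM, had Pvalb at 21.4 CPM, Cck at 45.7 and Vip at 10.1. Intruder replicate 3 of that time, with the fewest at 194 CPM, had Pvalb at 5.37 CPM, Cck at 178 and Vip at 28.7. Summed oligodendrocyte markers were 5170 and 1980 CPM in those libraries. Whether these markers account for the correlations was not tested.

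In frontal cortex Calb2 went with the olfactory bulb score (r = 0.87, rho 0.91, adjusted permutation p = 0.000124, n = 32 libraries; r = 0.83 without the 2 farthest) and with the Cajal-Retzius score (r = 0.78, rho 0.76). In 60 min control replicate 5 Calb2 was 57.6 CPM and summed olfactory bulb markers were 91.5 CPM. In 60 min control replicate 6 they were 8.19 and 9.02 CPM. The library with the highest Calb2, 120 min intruder replicate 1 at 70.1 CPM, stood off this relation. Its olfactory bulb markers were at 25.4 CPM, while several other lists were at their frontal cortex extreme in it. Summed thalamic markers were 139 CPM (next highest 76.5), suprachiasmatic markers 15.3 CPM (next 7.16) and the 3 Cajal-Retzius markers 6.38 CPM (next 2.65), and pyramidal markers were lowest, at 1460 CPM. The Cajal-Retzius markers were themselves highest in hypothalamus, at 21 to 51.6 CPM. One of the olfactory bulb markers, Sp8, is also made by interneurons.

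Cck in frontal cortex went with the pyramidal score (r = 0.81, rho 0.83) and against the striatal score (r = -0.81, rho -0.79). In hypothalamus, Sst and Calb1 went with the hypothalamic score (r = 0.71 each) and Reln against it (r = -0.77, rho -0.81). Vip went with the suprachiasmatic score (r = 0.48, rho 0.60), a relation that missed the threshold without the 2 farthest libraries (r = 0.41, adjusted p = 0.139). Cck went against that score (r = -0.79, rho -0.74). The hypothalamus library with Pvalb at 54.8 CPM, 120 min intruder replicate 6, had the highest sum of thalamic markers, 515 CPM in a range of 216 to 515; across libraries the 2 measures had r = 0.58 (rho 0.54), and r was 0.53 (adjusted p = 0.131) without the 2 farthest and 0.52 (adjusted p = 0.139) within group and index.

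**Figure D5:**
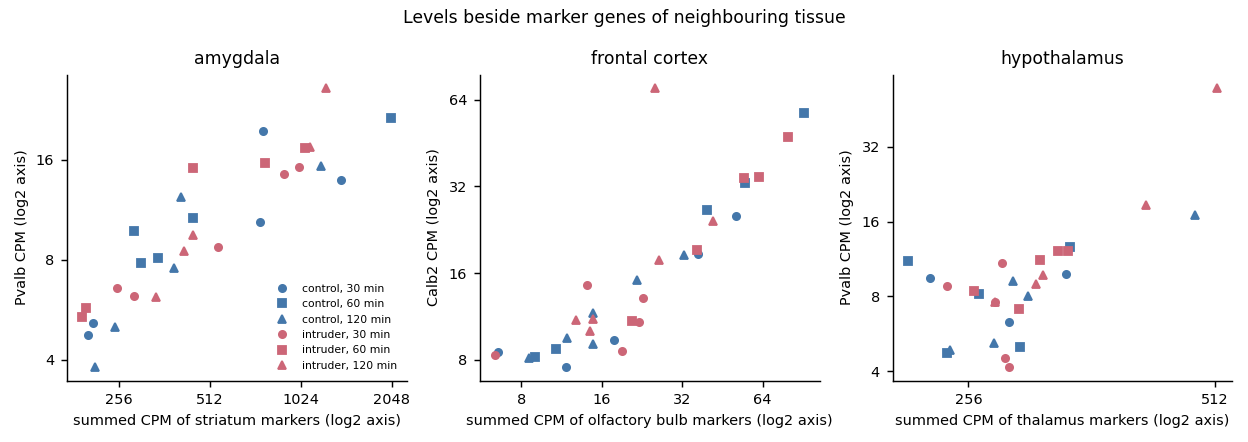
Level of Pvalb in amygdala, Calb2 in frontal cortex and Pvalb in hypothalamus against the summed CPM of striatal, olfactory bulb and thalamic marker genes, both on log2 axes; points are libraries. Calb2 at 70.1 CPM lies above the band formed by the other frontal cortex libraries, and Pvalb at 54.8 CPM has the highest thalamic sum, 515 CPM.

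The genes with the most similar profile were looked up for each of the 7 among 16635 genes tested in all regions. Over the 18 group means Cck was closest to Sstr3 (r = 0.997), Nrgn (0.997) and Epor (0.996). Calb2 was closest to Lbhd2 (0.996), Tram1l1 (0.995) and Ndn (0.994). Pvalb was closest to Rnf115 (0.991), the unnamed identifier ENSMUSG00000090432 (0.989) and Nrsn1 (0.988). Sst was closest to Ogfr (0.988), Vip to Gm10702 (0.977), Reln to Nrxn3 (0.973) and Calb1 to Wdr66 (0.960). The 18 means come from 3 regions, so these values mainly rank regional profiles. Over the deviations of all 90 libraries from their group means, where regional differences are removed, Pvalb was closest to Vamp1 and Kcnab3 (r = 0.93 each), genes of fast transmission and potassium channels. Calb1 was closest to Dbpht2 (0.87), Cck to Stum and Rtn4rl1 (0.85 each), Reln to Dscaml1 (0.82), Calb2 to Ablim3 (0.81) and Sp8 (0.80), Sst to Prr7 (0.78) and Vip to Prr36 (0.58). These are descriptions without a test, and libraries of a region share its dissection.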

How the data were processed

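Poly(A)-selected, stranded RNA libraries were sequenced single-end, per the labels' protocols. The submitters' processing notes name CASAVA 1.8.2, TopHat2 2.0.8, HTSeq 0.6.1, edgeR 3.2.4, R 3.0.0 and build NCBIM37, without their roles. The table deposited by the authors holds unnormalised counts of reads for 37991 Ensembl identifiers in each library; its 5 summary rows were left out. Symbols came from Gencode M21, and the unnamed remainder took up to 0.72% of reads. Reads carry no molecular identifiers, so counting error is a lower limit.

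Counts were fitted with edgeR 4.0.16 (R 4.3.3): TMM scaling, filterByExpr, glmQLFit and glmQLFTest, two-sided, adjusted over all genes tested (17091 to 18056). Effects of exposure and time were fitted per region over its 6 groups, regional differences per condition over 9 groups (44 control and 46 intruder libraries), and differences of the effect between regions per time. Genes are called at an adjusted p below 0.05. Simulated counts with known changes were used to check the fits. Correlations used Python 3.11.15. Alternatives were RLE and upper-quartile scaling, no filter, DESeq2 1.42.0, each library left out, a replicate block, the library index as a term, and fits of 2 groups alone.

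The members and gene lists were chosen with earlier results of these data known. Genes are named if they are members, receptors of a member's peptide, the 3 (group means) or 2 (deviations) most similar genes, or up to 2 called genes per list and direction with the smallest adjusted p; markers are named where their sums are given. Some genes the rule names are not reported here. Same-numbered libraries of 2 conditions share only a number: correlations of their deviations ran from -0.66 to 0.69. Regions taken by their number as 1 animal had median correlations of 0.05 to 0.23.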

Additional observations from a re-analysis of the deposited data

Results flagged for a closer look

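In 5 cases a value stood apart from the rest of their group by a gap test at the 95% level, among 119 combinations of gene and group; chance alone flags about 1 group in 20. Calb2 in frontal cortex at 120 min was 70.1 CPM in intruder replicate 1 and 10.1 to 24.2 CPM in the other 5 libraries. Pvalb in hypothalamus at 120 min was 54.8 CPM in intruder replicate 6 and 7.62 to 18.6 CPM in the other 4. Pvalb in amygdala at 60 min was 21.4 CPM in control replicate 6, the library with the highest summed striatal markers, and 7.85 to 10.7 CPM in the others. Cck in hypothalamus at 30 min was 10.7 CPM in intruder replicate 5 against 6.61 to 7.62 CPM, and Calb1 in frontal cortex at 60 min was 165 CPM in control replicate 2 against 144 to 147 CPM. No difference of the intruder effect between times or regions passed the test for these genes.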

How the results depend on the processing

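None of the 7 genes was called for intruder against control under any alternative run; the lists were not refitted. Counts of these genes called between times moved in 2 regions. In amygdala of intruder-exposed residents, 0 became 1 with upper-quartile scaling and with DESeq2, and ranged from 0 to 1 on leaving out single libraries. In frontal cortex, 2 became 1 in controls and 4 became 2 in intruder-exposed residents with 60 against 120 min alone, an alternative chosen after seeing the data. With a replicate block 5 were called there in intruder-exposed residents, and the changes of Reln in controls (-0.26, adjusted p = 0.0626) and of Calb1 from 30 to 120 min in intruder-exposed residents (-0.16, adjusted p = 0.0563) were lost; the block changed no other fold change call. That Calb1 call was also lost without the filter (adjusted p = 0.0786) and on leaving out any 1 of 22 of 32 libraries (adjusted p up to 0.153), and that of Cck from 60 to 120 min without the filter (adjusted p = 0.0656). In hypothalamus, pairs of genes past the threshold went from 6 to 2 within group and index, and marker relations past it by r alone (13 by both measures) from 16 to 10 without the 2 farthest libraries. Leaving out single libraries turned 2 uncalled differences of intruder-exposed residents: Reln between frontal cortex and hypothalamus (-0.08 to 0.01) and Pvalb between amygdala and hypothalamus (-0.08 to 0.32). Over all genes, the 93 intruder calls in amygdala at 120 min became 12 without the filter, 409 with DESeq2, 254 with the block, and 0 with the index or the 2 groups alone; the 34 in hypothalamus became 100 with DESeq2 and 0 with the 2 groups alone. Leaving out single libraries gave 6 to 218 in amygdala (6 without 120 min control replicate 1, 218 without control replicate 6) and 19 to 53 in hypothalamus (19 without 120 min control replicate 2 or 3, 53 without intruder replicate 2). The causes were not tested. Index terms could not be fitted for most frontal cortex time comparisons. The value with the least depth, of Vip, rested on 70 reads.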
